A study of Mus musculus with 8 samples.

Results

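A set of 4 genes of fatty acid oxidation and the peroxisome, Cpt1a, Acaa2, Ppara and Pex11a, was followed in the mouse submandibular gland, a major salivary gland. They were found through the array probes whose transcript accession belongs to one of the 4 genes. Each gene had 1 probe, printed in 10 spots, out of 60823 probes in all, of which 50 carry an accession and 46 could be given a gene symbol. RNA came from 20-week-old male mice, fed either normal chow (Ctrl, 4 samples) or a high-fat diet (DIO, for diet-induced obesity, 4 samples), with 1 one-colour array per sample. The strain, the composition of the diet and the time on it are not given in the sources used here. Nothing in the labels ties a sample to an animal, so the replicate error and the p-values may be partly technical. All 8 arrays share 1 scan time in the file headers. The first number of the array identifier there is the same on all Ctrl arrays and differs from that on all DIO arrays, so diet and whatever that number stands for cannot be told apart.

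Fatty acids are broken down for energy mainly in mitochondria, while peroxisomes shorten very long chains. Long chains enter mitochondria as carnitine esters, and each round of beta-oxidation ends with a thiolase that splits off acetyl-CoA. The nuclear receptor PPAR-alpha binds fatty acids as ligands and, paired with a retinoid X receptor, turns on genes of both organelles, and Ppara agonists make peroxisomes proliferate in rodent liver.

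The sequences around the transcription start are shown because the receptor acts on genes of this set through DNA. RefSeq promoters (build GRCm38.p6) matched 3 of the 4 genes by symbol, Cpt1a, Ppara and Pex11a, and each covers 250 bases before and 50 bases after the start on the strand of the gene. Capitals mark matches on either strand to the nuclear receptor half-site AGGTCA, the GC box GGGCGG and the CCAAT box. Cpt1a lies at chr19:3323051-3323350 (plus strand), Ppara at chr15:85735526-85735825 (plus strand) and Pex11a at chr7:79743082-79743381 (minus strand). The annotated spans of Cpt1a and Ppara begin before these windows, at 3322326 and 85734910, so an earlier start would not be covered.
Cpt1a: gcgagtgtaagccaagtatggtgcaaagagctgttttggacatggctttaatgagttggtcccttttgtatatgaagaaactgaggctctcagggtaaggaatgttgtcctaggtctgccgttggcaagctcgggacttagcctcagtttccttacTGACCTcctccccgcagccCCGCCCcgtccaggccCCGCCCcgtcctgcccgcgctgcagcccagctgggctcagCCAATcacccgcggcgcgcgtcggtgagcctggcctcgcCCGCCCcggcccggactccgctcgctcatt
Ppara: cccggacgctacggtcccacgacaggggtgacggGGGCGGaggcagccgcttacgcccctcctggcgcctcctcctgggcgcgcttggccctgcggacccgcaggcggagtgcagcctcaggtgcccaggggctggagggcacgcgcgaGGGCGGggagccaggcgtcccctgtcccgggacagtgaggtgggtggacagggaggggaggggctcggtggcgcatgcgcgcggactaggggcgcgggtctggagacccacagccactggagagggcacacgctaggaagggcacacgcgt
Pex11a: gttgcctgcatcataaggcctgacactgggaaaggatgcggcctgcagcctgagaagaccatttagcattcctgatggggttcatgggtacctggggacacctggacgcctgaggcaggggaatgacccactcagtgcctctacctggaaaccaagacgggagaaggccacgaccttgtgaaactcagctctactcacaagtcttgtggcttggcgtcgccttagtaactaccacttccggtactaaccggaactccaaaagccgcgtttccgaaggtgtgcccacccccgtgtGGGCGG

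The Cpt1a window held 1 half-site, 3 GC boxes and 1 CCAAT box. The Ppara window held 2 GC boxes and the Pex11a window 1, without a half-site or a CCAAT box in either. Among 32851 windows of this length, 16.3% held the half-site, 35.7% the GC box and 37.4% the CCAAT box. The full PPAR element, a pair of AGGTCA half-sites in the same direction with any 1 base between them, matched none of the 3 windows and 0.0396% of all, which says only that these letters are not there. The share of G and C was 62.3% for Cpt1a, 74.7% for Ppara and 57.3% for Pex11a, beside a median of 52.7%. Of all windows, 76.2% had less G and C than that of Cpt1a, 96.1% less than that of Ppara and 63.5% less than that of Pex11a.

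All 4 probes were well above background in all 320 spots, no spot was saturated, and the 4 spots with an outlier mark were not used. The Ppara probe was the dimmest against its surroundings. Its median raw signal lay between 250.5 and 426.75 on the 8 arrays, which was 9.28 to 17.1 times the local background. The raw signals of the other probes were at least 75.9 times the local background on every array. Levels below are on the log2 scale with the 75th percentile of each array set to 0, so that 0 is the signal that 75% of the spots do not exceed. Brightness also depends on the probe, so levels of different genes were not ranked as amounts of transcript.

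The spread between spots of 1 array was small beside the spread between arrays. Its median SD over the arrays was 0.04 for Cpt1a, 0.03 for Acaa2, 0.05 for Ppara and 0.05 for Pex11a (log2, up to 10 spots). The pooled SD between arrays of a group was 3.70, 8.86, 5.28 and 5.81 times as large. Arrays of the same diet thus differed in these genes by more than the spots of 1 array did.

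None of the 4 genes passed the test between the diets. Over all 54187 tested probes, 0 had an adjusted p below 0.05 (limma, Benjamini-Hochberg), a share of 0%, while 2441 (4.5%) had an unadjusted p below 0.05. Cpt1a, Acaa2 and Pex11a had a higher mean in DIO and Ppara a lower one. A higher mean in DIO was found for 45.8% of all tested probes. In none of the 4 genes did the groups separate, where all DIO arrays lay above all Ctrl arrays for 0.925% of probes and below for 1.94%.

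Cpt1a encodes the liver form of carnitine palmitoyltransferase 1, which makes the carnitine esters at the outer mitochondrial membrane and is the main point of control of entry. The Ctrl arrays 1 to 4 had levels of 3.54, 3.74, 3.33 and 3.78. The DIO arrays 1 to 4 had 3.71, 3.83, 3.66 and 3.59. Ctrl array 3 was the lowest and DIO array 2 the highest, 1.42-fold apart, and 3 of the 4 DIO arrays lay within the Ctrl range. The difference of 0.10 (DIO minus Ctrl, 95% interval -0.20 to 0.41) had an adjusted p of 0.833 in limma. An exact two-sided permutation test over the 70 assignments of arrays gave p = 0.457, where the smallest possible p is 0.0286. The difference was 0.01 without Ctrl array 3 and turned to -0.01 with cyclic loess normalization. On this scale Cpt1a was the steadiest of the 4 within a diet. Its residual SD was 0.16, beside a median of 0.26 over all tested probes, and 19.7% of probes had a smaller one. This place depended on the setting. After quantile normalization the SD was 0.222 for Cpt1a and 0.201 for Pex11a. After cyclic loess it was 0.244 for Cpt1a, 0.237 for Ppara and 0.164 for Pex11a. With the sample number as a block it was 0.155, 0.120 and 0.146 for these genes.

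Acaa2 encodes the mitochondrial thiolase that acts in the last step of beta-oxidation. Its levels were 4.52, 4.63, 4.60 and 4.0 on Ctrl arrays 1 to 4. They were 4.45, 4.25, 4.59 and 4.85 on DIO arrays 1 to 4. Ctrl array 4 was low and DIO array 4 high, 1.80-fold apart, and the sign of the diet difference turned without either of them. The difference was 0.10 with all arrays (95% interval -0.33 to 0.52, adjusted p = 0.891 in limma, exact permutation p = 0.686). It was -0.05 without Ctrl array 4, -0.01 without DIO array 4, -0.01 with quantile and -0.03 with cyclic loess normalization. The residual SD of 0.27 was near the median of all probes.

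Ppara encodes the receptor. Its levels were 0.28, 0.01, 0.45 and -0.10 on Ctrl arrays 1 to 4. They were -0.10, 0.03, 0.20 and -0.34 on DIO arrays 1 to 4. Ctrl array 3 was the highest and DIO array 4 the lowest, 1.73-fold apart. Of the DIO arrays, 2 lay within the Ctrl range and 2 below it, DIO array 1 by less than the spot error. The difference of -0.21 (95% interval -0.60 to 0.17) had an adjusted p of 0.774 in limma and an exact permutation p of 0.257. It was negative under each of the 19 alternatives run, from -0.30 to -0.12. Some of these cannot change the estimate, such as another filter on dim probes or the sample number as a block.

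Pex11a encodes a membrane protein that elongates peroxisomes ahead of their division and is known as a PPAR-alpha target in rodents. Its levels were 3.58, 2.83, 3.33 and 3.12 on Ctrl arrays 1 to 4. They were 3.74, 3.30, 3.44 and 3.63 on DIO arrays 1 to 4. Ctrl array 2 was the lowest and DIO array 1 the highest, 1.88-fold apart. All 4 DIO arrays lay above the Ctrl mean of 3.22, and 2 of them lay above every Ctrl array. The mean was 3.22 ± 0.32 on Ctrl arrays and 3.53 ± 0.19 on DIO arrays (SD, n = 4 each). The DIO mean was 1.24-fold the Ctrl mean, a difference of 0.31 (95% interval -0.10 to 0.72). It had an adjusted p of 0.774 in limma and an exact permutation p of 0.143. The difference was 0.43 without Ctrl array 1, where its unadjusted limma p was 0.037 and its adjusted p 0.664. It was 0.18 without Ctrl array 2.

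**Figure D1:**
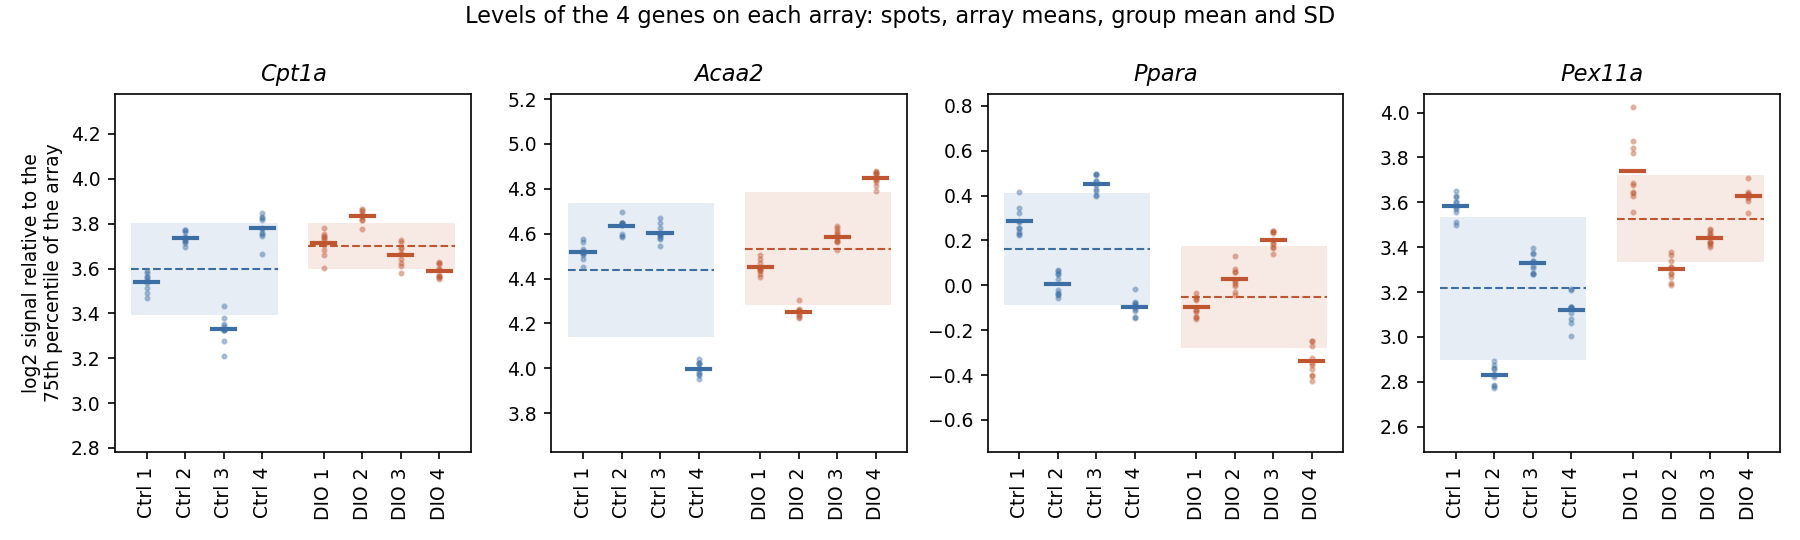
Log2 signal of Cpt1a, Acaa2, Ppara and Pex11a, with each array's 75th percentile at 0, on each of the 4 Ctrl and 4 DIO arrays. Dots are single spots, short bars the array means, dashed lines the group means and shaded bands 1 SD between arrays (n = 4). The vertical axes span the same range but start at different values. Ctrl and DIO arrays overlap in each gene, and Pex11a has the largest difference of the 4, 0.31.

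Pex11a had a wider spread between its spots on DIO array 1 than on the other arrays. The SD of 0.14 was the highest of the 27 probes with 10 spots that lay above the 75th percentile on this array, where the median was 0.04. On the other 7 arrays the SD of Pex11a lay between 0.03 and 0.06. The highest SD of any such probe lay between 0.09 (DIO array 2) and 0.16 (Ctrl array 3) over the arrays. The spots were split at column 100 after the data were seen. The 4 spots printed in columns above 100 of the array had a mean level of 3.89, from 3.82 to 4.02. The 6 spots in columns up to 100 had a mean of 3.64, from 3.56 to 3.69. By the 6 spots alone, DIO array 1 was level with DIO array 4, at 3.65 in the same columns. Without DIO array 1 the difference was 0.24.

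Over all probes Ctrl array 2 was unlike the rest, with a correlation across probes of 0.941 to 0.958 with them, where the others correlated at 0.981 to 0.990 among themselves. Probes are not independent replicates. This array was the lowest of the 8 for Pex11a and lay within the range of the other Ctrl arrays for Cpt1a and Ppara. For Acaa2 it was the highest of the Ctrl arrays (4.63), but not of the 8. Its place for Acaa2 and Cpt1a depended on the scaling. After quantile normalization it was the highest of the 8 for Acaa2 (4.85, where the next was 4.84). After cyclic loess it was the highest for Acaa2 (4.92) and Cpt1a (3.99). Without Ctrl array 2 the differences were 0.15 for Cpt1a, 0.16 for Acaa2, -0.27 for Ppara and 0.18 for Pex11a. None passed in limma (adjusted p 0.941 to 0.947). The interval of Pex11a was then -0.18 to 0.55. Of the lists of cell type markers, with 97 genes, 3 genes had a named probe, and those of gland acini, ducts and fat cells had none, so the tissue label could not be checked here. Mzb1, of B and plasma cells, was at 2.62 on Ctrl array 2, against -1.1 to -1.05 on the other Ctrl arrays and -1.25 to 1.15 on the DIO arrays. Mbp, of myelin, lay between -0.40 and 0.62, and Il2, of T cells, between -3.73 and -2.85. The part of other cell types in these levels was not tested, and fewer cells of a type cannot be told apart from less RNA per cell.

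The intervals of all 4 differences lay within 2-fold in either direction, as did those of 83.4% of all tested probes. The upper bound was nearest to 2-fold for Pex11a (0.72 on the log2 scale, where 1 is 2-fold). Without Ctrl array 1, Ctrl array 3, DIO array 2 or DIO array 3, the Pex11a interval reached up to 0.82 to 0.84.

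**Figure D2:**
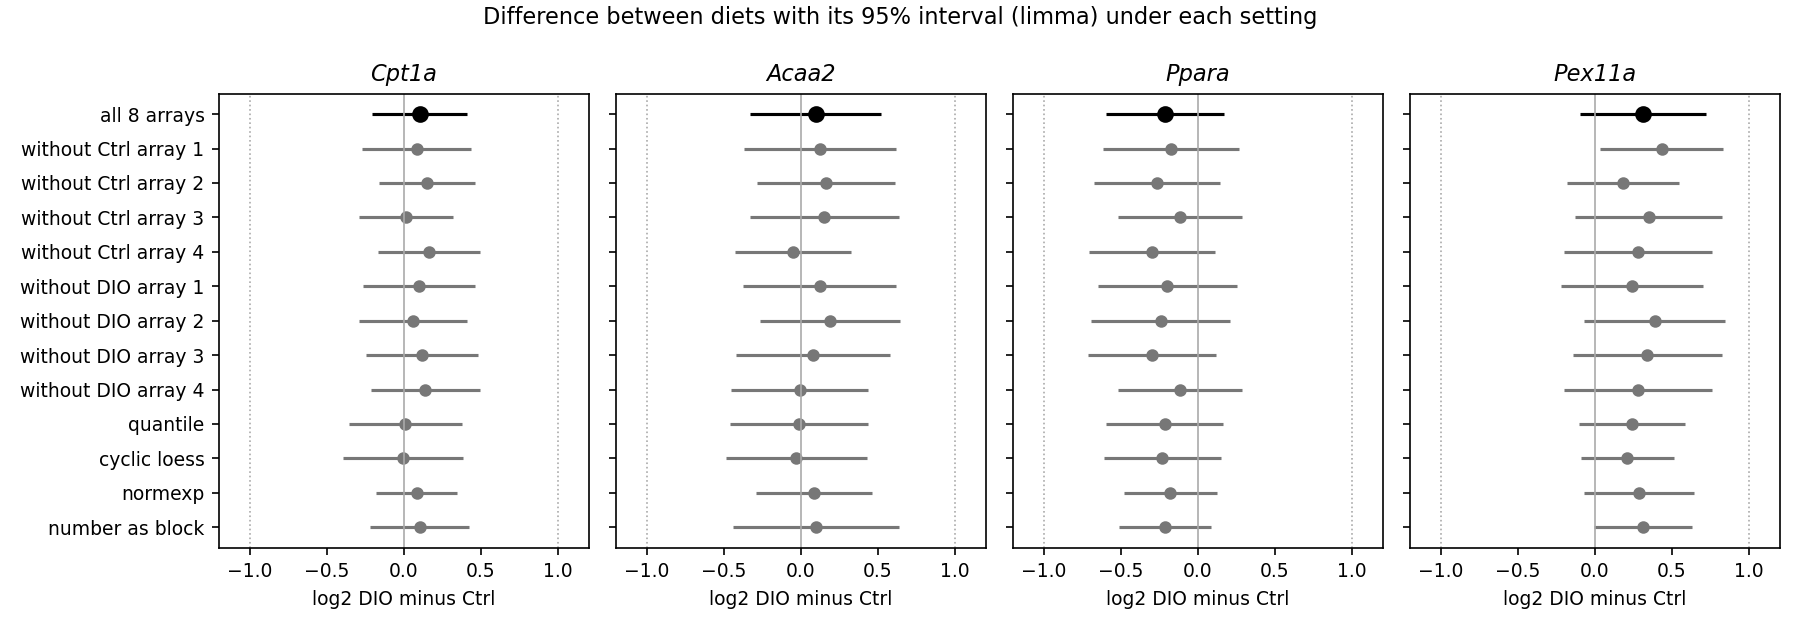
Difference between the diets (log2 DIO minus Ctrl, horizontal axis) for each gene with its 95% interval from limma. Black marks all 8 arrays and grey each alternative, namely each array left out, other normalizations, background correction by normexp and the sample number as a block. Dotted lines mark 2-fold, which no interval reaches. The interval of Pex11a excludes 0 without Ctrl array 1, by an unadjusted p of 0.037.

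Ratios between the genes within an array remove a factor equal for all its probes, but not one that changes with brightness. The ratio of Ppara to Pex11a, the receptor to the peroxisome gene, differed most between the diets. This follows from the levels, where Ppara had the lowest difference of the 4 genes (-0.21) and Pex11a the highest (0.31). All 6 ratios are formed from the same 4 levels on each array. The log2 values of Ppara over Pex11a were -3.30, -2.82, -2.88 and -3.22 on Ctrl arrays 1 to 4. They were -3.84, -3.27, -3.24 and -3.97 on DIO arrays 1 to 4. DIO arrays 1 and 4 lay below all Ctrl arrays, and DIO arrays 2 and 3 lay between Ctrl arrays. The difference was -0.53 (exact permutation p = 0.114, two-sided, and 0.548 adjusted over the 6 ratios). It lay between -0.64 and -0.40 when an array was left out and was -0.45 without Ctrl array 2. It was -0.46 after quantile and -0.44 after cyclic loess normalization.

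The ratio of Cpt1a to Acaa2, the entry step to the thiolase step, had the same mean in both diets. The mean was -0.84 ± 0.44 (SD, n = 4) on Ctrl arrays and -0.84 ± 0.35 (SD, n = 4) on DIO arrays, and the difference was 0.01 (exact permutation p = 0.971, two-sided, and 0.971 adjusted). Among Ctrl arrays the ratio was lowest on array 3 (-1.27) and highest on array 4 (-0.22). Among DIO arrays it was lowest on array 4 (-1.26) and highest on array 2 (-0.42). These mitochondrial genes thus differed in ratio by up to 2.07-fold between arrays, as much in one diet as across both. The sign of the diet difference turned on leaving out 1 array in 5 of 8 cases.

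The ratios to Ppara of Cpt1a and Acaa2 had higher means in DIO, by 0.32 and 0.31 (exact permutation p = 0.229 and 0.286, both 0.548 adjusted). The first was 0.13 without Ctrl array 3, and the second 0.11 without DIO array 4. After quantile and after cyclic loess normalization the first was 0.23 and the second 0.20. On DIO array 4 the ratio of Acaa2 to Ppara was 5.19, above the 4.09 to 4.63 of the Ctrl arrays, and the other DIO arrays lay within that range. The ratios to Pex11a of the same genes differed by -0.21 and -0.22 (exact permutation p = 0.457 for each). They lay between -0.35 and -0.03 and between -0.33 and -0.02 when an array was left out, in both cases nearest to 0 without Ctrl array 2. None of the 6 ratios passed the test between the diets. The smallest possible p of this exact permutation test is 0.0286. A single ratio could therefore not pass after adjustment over the 6, even with its groups fully apart.

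**Figure D3:**
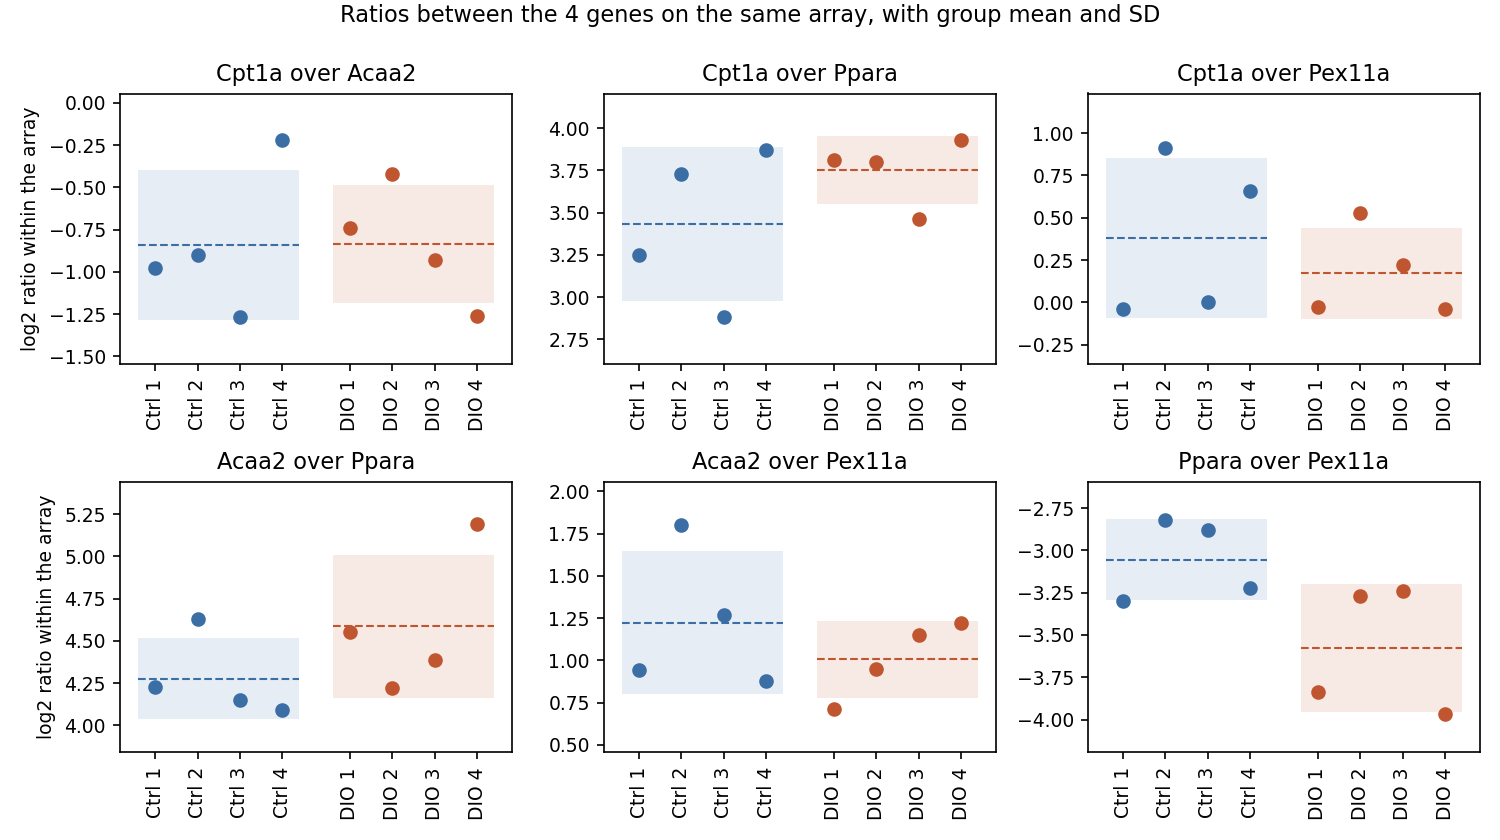
Log2 ratio of 2 genes on the same array for the 6 pairs, on each of the 4 Ctrl and 4 DIO arrays. Points are arrays, dashed lines group means and shaded bands 1 SD (n = 4). The vertical axes span the same range but start at different values. The groups overlap in each pair, and the Ppara over Pex11a ratio is below the Ctrl range on DIO arrays 1 and 4.

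Over the 8 arrays the levels of the genes showed no common direction. So few arrays cannot show that one is absent. Of the 6 pairs, 4 had a negative Pearson correlation of their levels, and none passed (smallest exact permutation p = 0.127, 0.501 adjusted over the 6 pairs). Cpt1a and Ppara had r = -0.58 (exact permutation p = 0.127) and Spearman's rho = -0.43 (exact permutation p = 0.299). Without Ctrl arrays 1 and 3, the farthest from the median of Cpt1a, r was 0.40. Without Ctrl array 3 alone it was -0.16 and without Ctrl array 1 alone -0.54, so this relation rests on Ctrl array 3. Without DIO array 4 it was -0.90 (exact permutation p = 0.00714, 0.0428 adjusted over the 6 pairs), the only 1 of the 15 alternatives run for each pair in which a pair passed.

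Cpt1a and Acaa2 had r = -0.54 (exact permutation p = 0.167) and rho = -0.57 (exact permutation p = 0.151). Without Ctrl arrays 1 and 3, r was -0.82. It lay between -0.67 and -0.45 when a single array was left out, but was -0.21 after quantile and -0.02 after cyclic loess normalization. Acaa2 was low on Ctrl array 4 and DIO array 2, where Cpt1a was at its highest in each group.

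Cpt1a and Pex11a had r = -0.28 and rho = -0.50 (exact permutation p = 0.495 and 0.216), and r = -0.50 without the same 2 arrays. The r was -0.66 with quantile (exact permutation p = 0.0722, 0.433 adjusted), -0.68 with cyclic loess normalization (exact permutation p = 0.0645, 0.387 adjusted) and -0.61 on deviations from the group means (exact permutation p = 0.219, 0.506 adjusted). It lay between -0.55 without Ctrl array 3 and -0.18 without Ctrl array 2. Acaa2 and Pex11a had r = 0.27 and rho = 0.14 (exact permutation p = 0.511 and 0.752). Without Ctrl array 2, which was lowest for Pex11a, that r was 0.68, and without Ctrl array 4 and DIO array 2, the farthest from the median of Acaa2, it was -0.14. Ppara had r = 0.01 with Acaa2 and -0.10 with Pex11a (exact permutation p = 0.985 and 0.819, rho = -0.02 and -0.24). With Acaa2 it was -0.50 without Ctrl array 4 and DIO array 2. With Pex11a it was 0.26 without Ctrl array 3 and DIO array 4, the farthest from the median of Ppara. Adjusted over the 6 pairs, the p of rho was at least 0.598. Groups of 4 arrays are too few for a correlation within a diet.

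Among the 43 other named genes tested, those whose levels followed a gene most closely over the 8 arrays were found by Pearson's r, as a description. Cpt1a was closest to Alkbh4, a demethylase, and Chgb, of secretory granules, both with r = 0.56. Acaa2 was closest to Mzb1 with r = 0.54 and to Gm9789 with 0.52. Ppara was closest to Anxa8, an annexin, with r = 0.56 and to Hspb7, a small heat shock protein, with 0.50. These values were picked as the highest of 43 for each gene. Over 54132 other probes the 95th percentile of r was 0.47 for Cpt1a, 0.61 for Acaa2 and 0.51 for Ppara. The r also depended on the scaling. After quantile and cyclic loess normalization it was 0.73 and 0.79 for Cpt1a with Alkbh4, and 0.79 in both with Chgb. Acaa2 then had 0.63 and 0.70 with Mzb1, and 0.38 and 0.45 with Gm9789. Ppara had 0.60 and 0.57 with Anxa8, and 0.43 and 0.39 with Hspb7. The 95th percentile was then 0.65 and 0.70 for Cpt1a, 0.64 and 0.68 for Acaa2 and 0.51 in both for Ppara.

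Pex11a was closest to Prdx2, a peroxiredoxin that removes hydrogen peroxide, with r = 0.94, and 0.86 without Ctrl array 2. The Prdx2 levels were 5.98, 5.49, 5.83 and 5.87 on Ctrl arrays 1 to 4. They were 6.21, 5.81, 5.95 and 6.02 on DIO arrays 1 to 4. On this scale both genes were lowest on Ctrl array 2 and highest on DIO array 1. The likeness depended on how the arrays were scaled, with r = 0.23 after quantile and 0.37 after cyclic loess normalization. After either, Prdx2 was lowest on DIO array 2 and highest on Ctrl array 4, and Pex11a lowest on Ctrl array 2 and highest on DIO array 4. On the first scale, values of r this high were more frequent for Pex11a than for the other 3 genes. Of 54132 other probes measured on all arrays, 2.01% had r above 0.9 with Pex11a, beside 0.00924% with Cpt1a, 0.12% with Acaa2 and 0.0388% with Ppara. Without Ctrl array 2 the share for Pex11a was 0.628%, and for the others 0.0536%, 0.362% and 0.181%. With all arrays the share for Pex11a was 0.77% after quantile and 0.283% after cyclic loess normalization. For the other 3 genes it was then at most 0.113% and 0.146%. The share with r below -0.9 with Pex11a was 0.746% on the first scale, 1.45% after quantile and 1.13% after cyclic loess normalization. The probes share arrays and scaling, and none of these shares was tested.

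**Figure D4:**
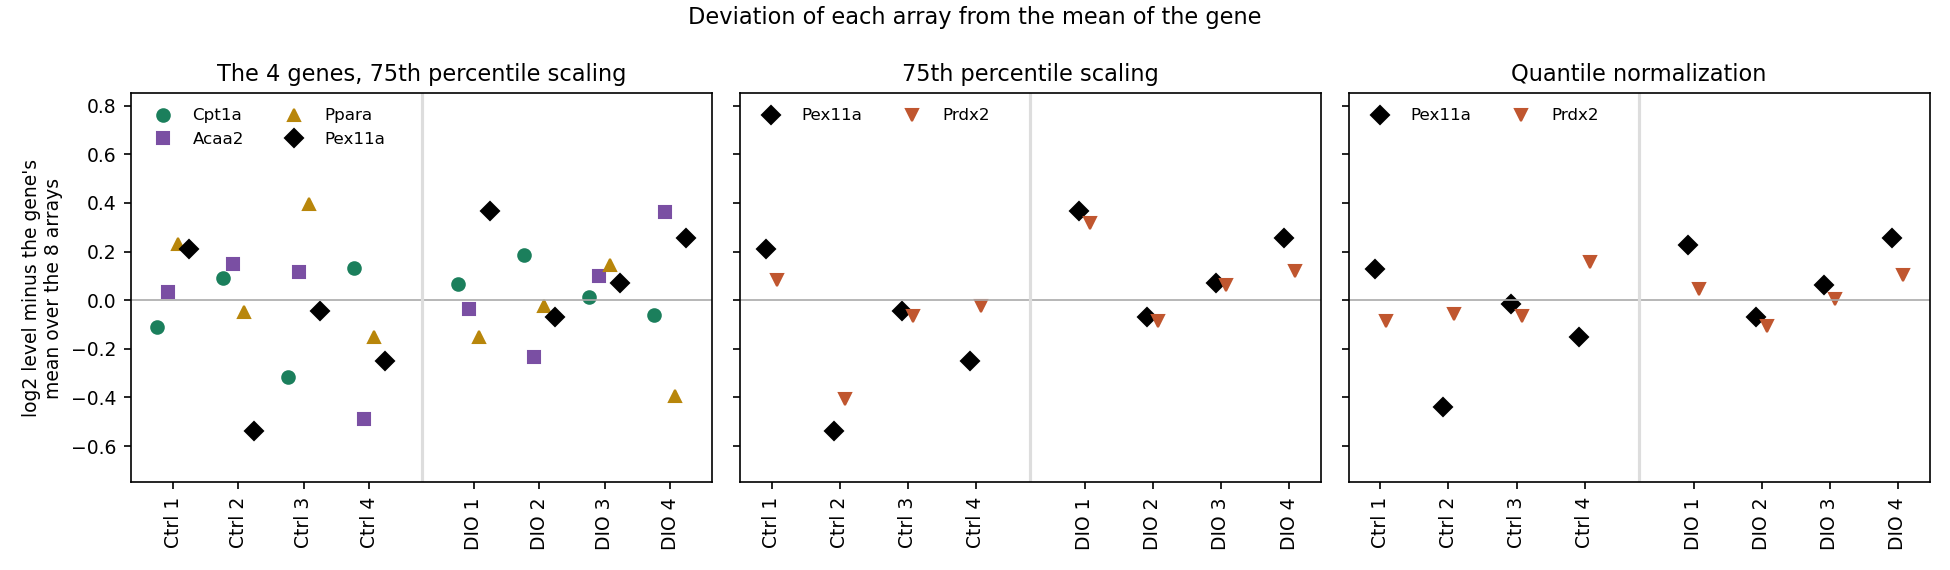
Deviation of each array from the mean of the gene over the 8 arrays (log2, vertical axis) for the 4 Ctrl and 4 DIO arrays, with genes set slightly apart along the horizontal axis. The left panel shows Cpt1a, Acaa2, Ppara and Pex11a, which take different orders over the arrays, and the others Pex11a with Prdx2, which share their lowest and highest arrays with the 75th percentile scaling (middle, r = 0.94) but not after quantile normalization (right, r = 0.23).

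The levels of the 4 genes were also set against measures of the whole array, and none of these 12 relations passed. The measures were the share of spots well above background, the 75th percentile of the signal and the median local background. The share of spots well above background was between 81.2% (DIO array 1) and 91.2% (Ctrl arrays 2 and 4), and its correlation with the Pex11a level was r = -0.69 (exact permutation p = 0.0545, 0.654 adjusted over 12 relations) and rho = -0.67 (exact permutation p = 0.0831). Without Ctrl array 1 and DIO array 1 it was -0.40. Pex11a and the 75th percentile of the signal, which is subtracted to form the level, had r = -0.52 (exact permutation p = 0.183, 0.867 adjusted) and rho = -0.43 (exact permutation p = 0.299). That r was 0.02 without Ctrl array 4 and DIO array 1, the farthest from the median of the percentile, and -0.84 without Ctrl array 2. The part of the array measures in the Pex11a difference was not tested. For Cpt1a, Acaa2 and Ppara the r with the share of spots lay between -0.09 and 0.07. With the 75th percentile it lay between -0.42 and -0.01 for these genes. With the local background r was 0.45 for Ppara (exact permutation p = 0.258, 0.867 adjusted), and -0.38 without Ctrl array 4 and DIO array 4. For the other genes the r with the local background lay between -0.09 and 0.18. These relations were chosen after the data were seen.

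Other genes of these pathways could not be followed by name. The lists of fatty acid oxidation, peroxisome and Ppara regulation held 106 genes in all. Of 37 fatty acid oxidation genes 2 had a named probe, Cpt1a and Acaa2, of 46 peroxisome genes only Pex11a, and of 24 regulators and targets only Ppara. In each list 0 of the measured genes passed in either direction. The median difference over all tested probes was -0.02, beside 0.10, 0.10, -0.21 and 0.31 for the 4 genes. Other members may lie among the probes that carry only an identifier of the array maker, so fatty acid oxidation and the peroxisome as a whole were not assessed.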

How the data were processed

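The authors deposited the scanner output of each array. Per the file headers, spot intensity was read in 1 channel by Agilent Feature Extraction (version 11.0.1.1, per the submitters' processing notes), which subtracted background and spatial trends array by array. The deposited intensity carries no normalization between arrays. Per the labels' protocols, RNA was depleted of ribosomal RNA and amplified by random priming into Cy3-labelled cRNA.

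The log2 processed signal minus the array's 75th percentile over non-control spots was averaged over the spots of a probe, without control and outlier spots. A probe was tested if well above background on at least 4 arrays (in at least 0.5 of its spots) and measured on at least 3 of each group. This kept 54187 probes. Groups were compared with limma 3.58.1 in R 4.3.3 (data.table, version 1.17.8), two-sided, at a threshold of 0.05 after Benjamini-Hochberg adjustment over these probes. Ratios and correlations were tested by exact permutation in Python 3.11.15 (numpy 2.4.6, pandas 2.3.3), and plots drawn with matplotlib 3.10.9. Precision is limited by having 4 arrays per group. The methods were tested on simulated data.

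Accessions were matched without version to RefSeq symbols (GRCm38.p6), and the headers name another build for the array design. The named genes are the 4 members, the other listed pathway and marker genes with a named probe, and for each member the 2 named genes with the highest r, of which 1 is not reported here. The members and lists were chosen with earlier results of these data known. Alternatives covered normalization, background correction (normexp on median signals, offset 50), the filter, outlier spots, the median over spots, moderation, array weights, the sample number as a block and each array left out.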

Additional observations from a re-analysis of the deposited data

How the results depend on the processing

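Neither the 4 genes nor any other probe passed under the 19 alternatives to the test over all probes, with 0 calls and a smallest adjusted p of 0.216 to 0.956 (limma). At an unadjusted p below 0.05, 2441 probes were found, 1321 without DIO array 1, 1613 without DIO array 3, 4396 without Ctrl array 3, 4522 with the replicate block and 1761 to 3170 otherwise. Ppara stayed negative (-0.30 to -0.12) and Pex11a positive (0.18 to 0.43). Cpt1a turned to -0.0059 with cyclic loess, and ranged from 0.01 to 0.16 with an array left out. Acaa2 turned to -0.0137 with quantile and -0.0308 with cyclic loess, and ranged from -0.051 to 0.19 with an array left out. The Cpt1a to Acaa2 ratio difference ranged from -0.14 to 0.21 in those fits, and the other 5 ratio differences kept their sign under each of their 15 alternatives. Scaling to detected probes alone and the block, which are among these, cannot change a ratio difference.

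With the sample number as a block, the estimates were the same and no call changed. Limma p was 0.465 for Cpt1a, 0.676 for Acaa2, 0.13 for Ppara and 0.0527 for Pex11a (adjusted p = 0.780, 0.884, 0.570 and 0.559). Deviations from the group means of same-numbered arrays correlated across probes at 0.286, 0.298, 0.255 and 0.0621, each Ctrl array best with the DIO array of its own number. For the ratios, an exact permutation test that swapped diets within a number (16 swaps, smallest possible p = 0.125, added after seeing the data) gave p = 0.125 for Ppara over Pex11a, lower in DIO in 4 of 4 numbers (-0.54, -0.45, -0.36 and -0.75). It also gave 0.125 for Cpt1a over Ppara, higher in 4 of 4, and at least 0.5 for the other 4 ratios (0.375 and at least 0.6 adjusted). This pairing is a hint from the data, and no label ties same-numbered samples together.

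Among correlations over the arrays, Acaa2 with Ppara (r = 0.01) turned to -0.0293 with quantile normalization, -0.0082 on scaling to detected probes alone and -0.0103 with the median over spots, and ranged from -0.28 to 0.58 with an array left out. Acaa2 with Pex11a turned to -0.11 with quantile and -0.10 with cyclic loess. Ppara with Pex11a turned to 0.22 on deviations from the group means and ranged from -0.23 to 0.17 with an array left out. The causes were not tested.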
